A study of Mus musculus with 48 samples.

Results

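The response of the substantia nigra (SN) to chronic breathing of 11% O2 was examined in mice whose striatum had received monomeric α-synuclein, the control injection of a Parkinson's disease model. The study sequenced RNA from the whole dissected SN of 48 mice, of which 24 received monomer and 24 received preformed fibrils (PFF), aggregates that seed α-synuclein inclusions. Members were the monomer mice of the table of batch-corrected counts: 9 labelled hypoxia and 11 labelled normoxia, 20 of the 42 mice in that table. All were male C57Bl/6J mice injected on 1 side, in the right striatum, at 121 days of age. The hypoxia group breathed 11% O2 and the normoxia group 21% O2, and both carried the monomer injection, so no uninjected mouse entered the comparison. Tissue was taken 90 to 98 days later, and hypoxia replicate 11 was the mouse collected at 98 days. The deposited design text gives 6 weeks of 21% O2 and then 6 weeks of 11% O2. The treatment protocol and the methods instead describe 11% O2 for 12 weeks after injection. In the paper's experiment with a delayed start, the only group moved to 11% O2 had received PFF. Its monomer mice at 11% O2 belong to the design that began soon after injection, which gives 12 weeks of exposure. A comparison of 11% with 21% O2 without aggregates asks what the low oxygen alone changed.

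Mice were collected in 3 batches by harvest date, and the monomer groups met in batch 1 only. Replicates 1 to 4 of both groups formed that part of batch 1, the other 7 normoxia mice came from batch 2, and the other 5 hypoxia mice came from batch 3. Beyond batch 1, harvest date and oxygen level could be separated only through the PFF mice, which were present in all 3 batches. Each of the 20 mice had between 13596980 and 17120921 counts on genes. The values are given either as corrected TPM (a length-normalized share of the RNA of protein-coding genes, after ComBat-seq) for all 20 mice, or as uncorrected TPM (a share over all genes). Uncorrected TPM is given mostly for mice within a batch, and in places pooled over batches. A gene was called when edgeR's quasi-likelihood test gave an adjusted p under 0.05, with Benjamini-Hochberg adjustment over all genes tested, together with a log2 fold change above 0.25 or below -0.25. All fold changes compare 11% with 21% O2.

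Cells sense low oxygen through hypoxia-inducible factors (HIFs), whose α subunits are hydroxylated by the EGLN enzymes and degraded while oxygen is plentiful. Stabilized HIF binds the core sequence of the hypoxia response element and raises genes for glucose use and for vessel growth, among them Vegfa, the ligand that drives endothelial cells through its receptor KDR. In brain, weeks of mild hypoxia are known to enlarge the capillary bed. Cells also hold a separate programme of chaperones, in which heat shock factor HSF1 acts through the heat shock element when proteins are misfolded or temperature rises.

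In all 20 mice, 1073 of 14839 genes tested were called, 7.23% of those tested, of which 694 (4.68%) were higher and 379 (2.55%) lower at 11% O2. Most of the changes were small: 732 of the called genes moved by less than 0.5 on the log2 scale, and 39 by more than 1, of which 27 were higher and 12 lower. The median log2 fold change of all genes tested was -0.01. In batch 1 alone, where 4 mice were compared with 4 of the same harvest date in uncorrected counts, 25 of 14437 genes were called (0.173%). In batches 2 and 3 alone, where 5 hypoxia mice were compared with 7 normoxia mice and the PFF mice carried the difference between batches, 229 of 14883 genes were called (1.54%). These 2 comparisons shared no monomer mouse. Of the 25 genes called in batch 1, 21 had the same sign in batches 2 and 3 and 11 were called there too, which is 44.0% of the batch 1 calls and 4.80% of the other calls. Over all 14426 genes tested in both, 55.9% had the same sign. The 11 genes called in both were Vegfa, Kdr, Cxcl12, Mcam, Prss35, Slc6a6 and Cirbp, all higher, and Hspa1a, Hspa1b, Ccdc117 and Slc5a3, all lower.

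**Figure D1:**
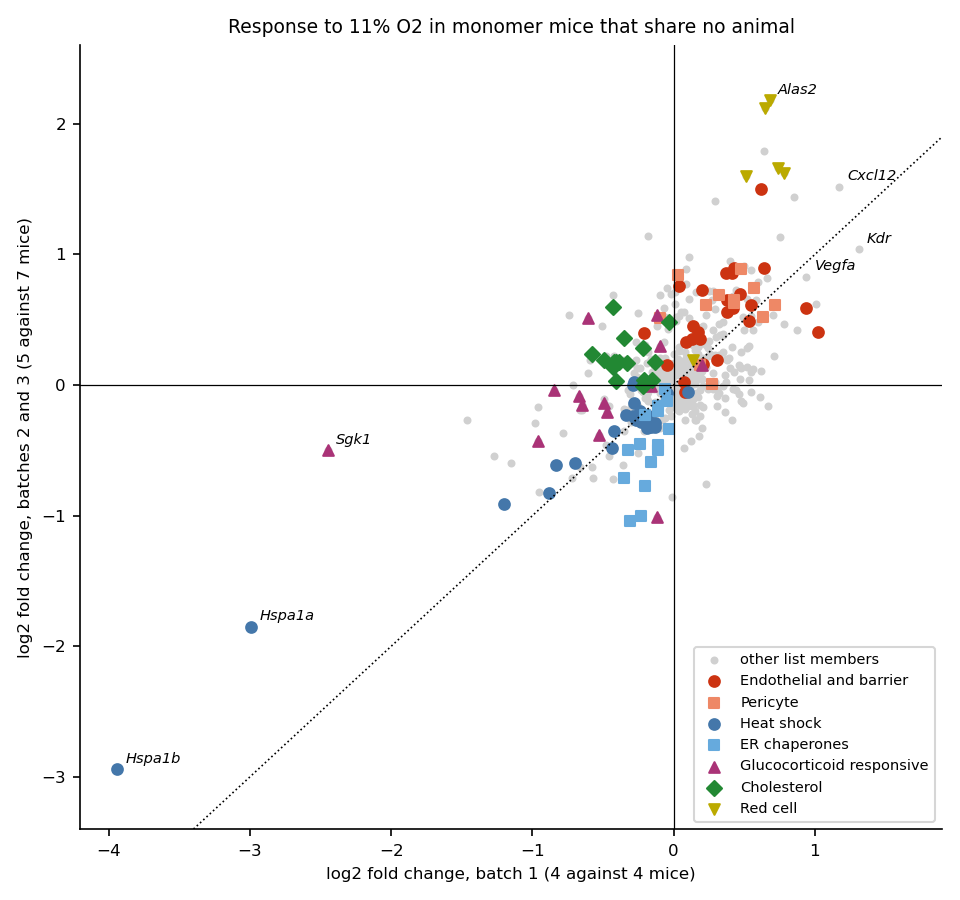
Each point is a member of the gene lists, with its log2 fold change (11% against 21% O2) in batch 1 on the x axis (4 against 4 mice) and in batches 2 and 3 on the y axis (5 against 7 mice), and the dotted line marks equal values. Endothelial, pericyte and red cell genes lie at the upper right, heat shock and ER chaperone genes at the lower left, and cholesterol genes are below 0 in batch 1 and mostly above 0 in batches 2 and 3.

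Vegfa and Kdr had the smallest p among the higher genes. Vegfa (ENSMUSG00000023951.17, chr17:46016993-46032369 of GRCm38, minus strand) had corrected TPM from 108 to 135 with a median of 129 in the 11 normoxia mice, and from 203.9 to 274 with a median of 238 in the 9 hypoxia mice. In batch 1 its uncorrected TPM was 103, 119, 111 and 116 at 21% O2 and 243, 209.7, 196.6 and 211.8 at 11% O2. Every hypoxia mouse lay above every normoxia mouse, in batch 1 and in the corrected values of all 20 mice. The log2 fold change was 0.89 ± 0.05 (SE; 1.85-fold, edgeR adjusted p = 2.54e-17), with 0.94 in batch 1 and 0.83 in batches 2 and 3. Such separation was rare: the corrected TPM of the groups did not overlap in 58 of the 14839 genes tested (0.391%), and the uncorrected TPM of the batch 1 mice did not in 1402 of 14437 (9.71%).

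Kdr (chr5:75932827-75978458 of GRCm38, minus strand), which encodes the main receptor for VEGFA on endothelial cells, had corrected TPM from 4.17 to 6.88 at 21% O2 (median 5.4) and from 9.04 to 15.9 at 11% O2 (median 12.4). In batch 1 its uncorrected TPM was 3.17, 3.72, 3.51 and 2.88 at 21% O2 against 8.86, 6.46, 8.59 and 9.15 at 11% O2. The groups were apart in both sets of values, although the uncorrected TPM of all 20 mice overlapped, since batch 2 normoxia mice reached 6.54 and the lowest batch 1 hypoxia mouse had 6.46. Kdr rose 2.22-fold (log2 1.15 ± 0.09, edgeR adjusted p = 5.5e-12), by 1.31 in batch 1 and 1.04 in batches 2 and 3 on the log2 scale. Of the 10 ligands and receptors of the VEGF family, 4 were called, all of them higher, and the median log2 fold change of the family was 0.33. The other called members were the receptors Flt1, which binds VEGFA and PGF (0.52 ± 0.11), and Flt4, the receptor for VEGFC (0.35 ± 0.10). The ligand Vegfb had a log2 fold change of -0.01 ± 0.06 and the co-receptor Nrp1 one of 0.09 ± 0.07, and neither was called.

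**Figure D2:**
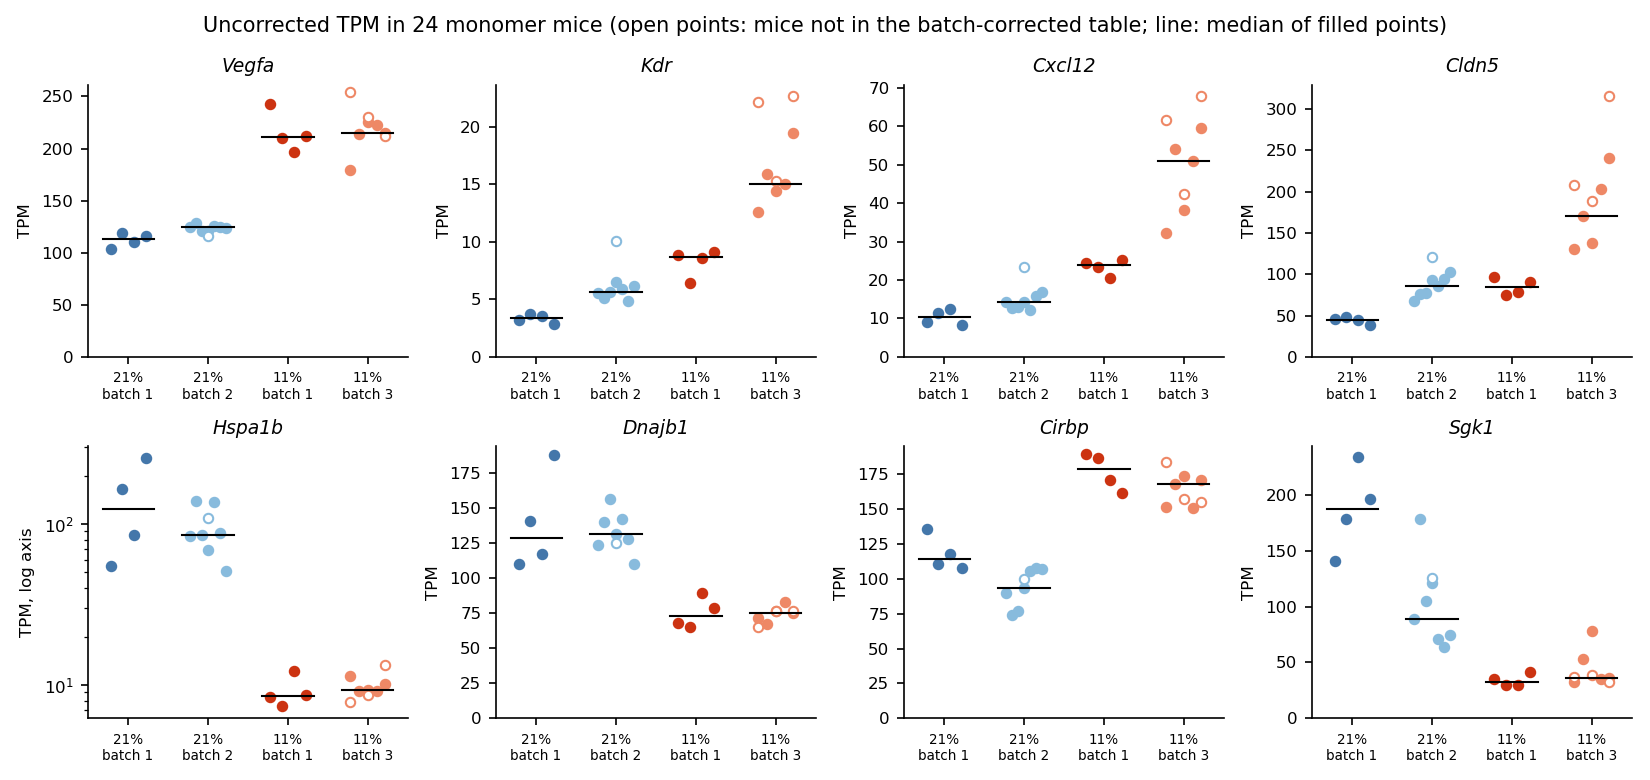
Uncorrected TPM of 8 genes in the 24 monomer mice, by O2 level and harvest batch, where each point is a mouse, open points are the 4 mice that the authors left out of the corrected table and lines are medians of the filled points. Vegfa, Kdr, Cxcl12, Cldn5 and Cirbp are higher at 11% O2 within batch 1, whereas Hspa1b (log axis), Dnajb1 and Sgk1 are lower, and Kdr, Cxcl12 and Cldn5 are also higher in batch 2 than in batch 1 normoxia mice.

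Other angiogenic signals moved with the VEGF family. Of 29 tested, 15 were called higher and 1 lower, with a median of 0.31. The chemokine Cxcl12, which guides CXCR4-bearing cells, had uncorrected TPM of 9.18, 11.5, 12.4 and 8.26 at 21% O2 in batch 1 and 24.3, 23.3, 20.6 and 25.3 at 11% O2. The hypoxia mice were all above the normoxia mice, also in the corrected TPM (11.9 to 18.4 against 26.5 to 54.1). Its log2 fold change was 1.36 ± 0.12 (edgeR adjusted p = 4.6e-11), the largest among these signals. Adm, which encodes the vasodilator peptide adrenomedullin, rose 2.22-fold, from a median corrected TPM of 4.34 to 9.31. Apln, the ligand of the apelin receptor, rose by 0.34 ± 0.07, and the mural cell receptor Pdgfrb by 0.51 ± 0.07. Tek, the receptor for angiopoietins, was called at 0.39 ± 0.13, while its ligand Angpt2, at a median corrected TPM of 1.88 and 1.82 in the normoxia and hypoxia mice, was not (0.12 ± 0.22). The member called lower was Hey2, a Notch target, at -0.36 (chosen after its values were seen).

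The vessel wall itself was represented at higher levels. All 26 endothelial and blood-brain barrier genes had a positive log2 fold change, 17 were called, and the median was 0.48. It was 0.34 in batch 1, where 24 of 26 were positive, and 0.53 in batches 2 and 3, where 25 were. Cldn5, the tight junction claudin of brain endothelium, had uncorrected TPM of 45.2, 48.2, 45.1 and 38.1 at 21% O2 and 97, 74.8, 78.3 and 90 at 11% O2 in batch 1. These groups did not overlap, and Cldn5 was among the 25 genes called in batch 1 (log2 0.94 ± 0.11, edgeR adjusted p = 0.0107). Over all 20 mice it rose by 0.74 ± 0.11. Egfl7, secreted by endothelial cells, rose by 0.57 ± 0.09, Cd34, a surface sialomucin, by 0.57 ± 0.09, and Erg, an endothelial transcription factor, by 0.80 ± 0.13. Slc2a1, the glucose transporter of the barrier, had a log2 fold change of 0.24 ± 0.08, just under the threshold for a call.

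Pericytes and smooth muscle cells enclose the endothelium. Of 12 pericyte genes, 8 were called higher and the median was 0.51. The ATP-sensitive potassium channel of pericytes has the subunits Kcnj8 (0.57 ± 0.08) and Abcc9 (0.61 ± 0.07), and Rgs5, a regulator of G-protein signalling, rose by 0.74 ± 0.14. Ndufa4l2, a mitochondrial protein that pericytes express strongly and that HIF is known to raise, went from a median corrected TPM of 6.11 to 9.3. Of 5 arterial smooth muscle genes, 2 were called, Myl9 at 0.67 ± 0.16 and Acta2 at 1.51 ± 0.46. Acta2, smooth muscle actin, ranged from 0.577 to 56.8 corrected TPM in the hypoxia mice and from 2.63 to 11.2 in the normoxia mice, so the hypoxia mice spread around all the others, and without hypoxia replicate 10 it was not called (log2 1.12, edgeR adjusted p = 0.099). In batch 1 the median of the 5 smooth muscle genes was 0.09, against 0.89 in batches 2 and 3.

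Summed over each marker list in uncorrected TPM, the endothelial genes came to 1451 to 1613 in the normoxia and 1661 to 1931 in the hypoxia mice of batch 1, with no overlap, and to 1593 to 1814 in batch 2 and 2079 to 2746 in batch 3. Pericyte genes came to 204.3 to 294 and 286 to 348 in batch 1, where 1 normoxia mouse reached into the hypoxia range. Fibroblasts of the meninges can be carried along by the dissection. The 9 leptomeningeal genes all had positive log2 fold changes over the 20 mice (median 0.36, 0.01 in batch 1 and 0.71 in batches 2 and 3), but none was called by edgeR, DESeq2 or limma, and 2 had an unadjusted p under 0.05. Their sum ranged from 21.5 to 122 TPM at 21% O2 and from 31.0 to 175.5 at 11% O2, and no leptomeningeal gene was at 0 in all 20 mice. Their part in the higher vascular levels outside batch 1 was not tested. In batch 1 the leptomeningeal median rested on 8 genes, of which 5 were positive and 3 negative, and the median of the pericyte genes was 0.37. In a bulk sample, more endothelial cells and more RNA per endothelial cell cannot be told apart, and the same holds for fewer cells and less RNA of any type described here.

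**Figure D3:**
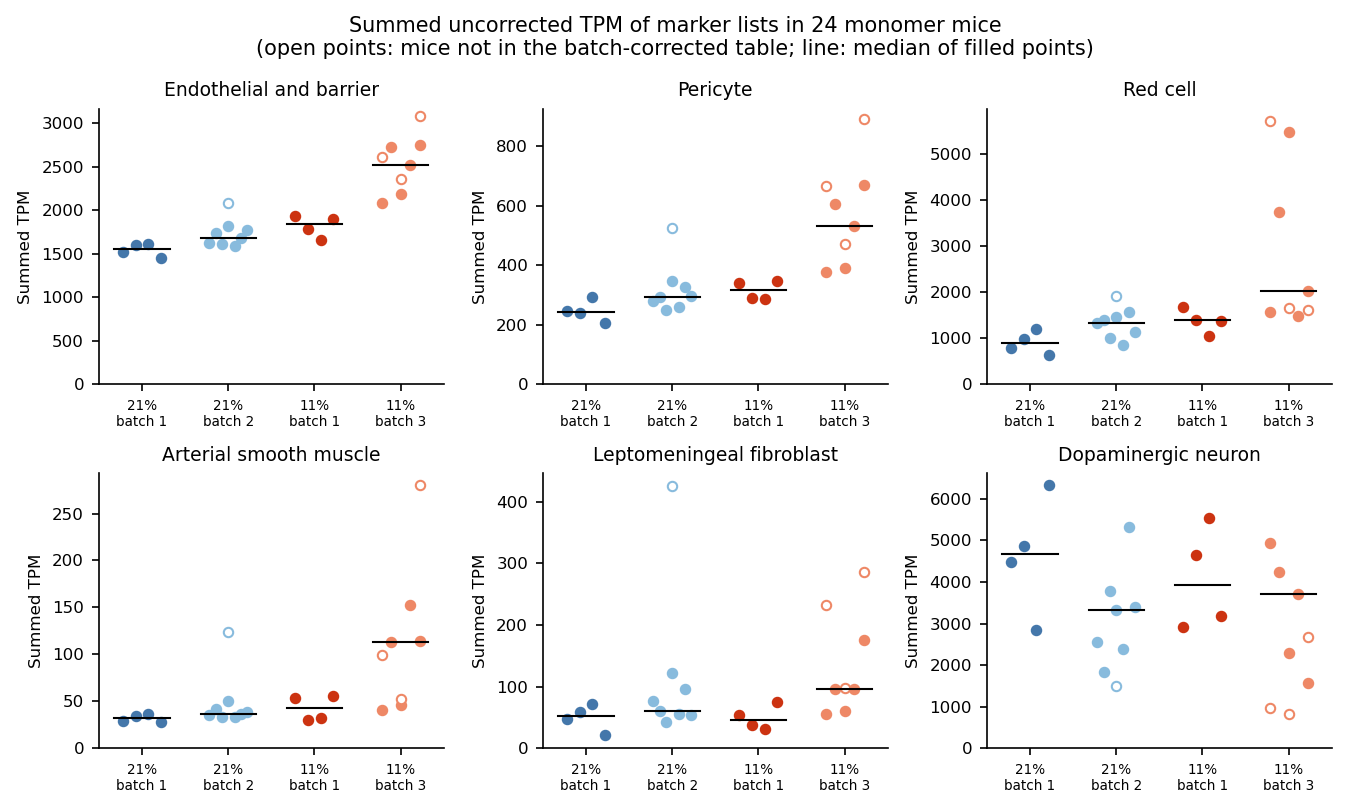
Summed uncorrected TPM of 6 marker lists in the 24 monomer mice by O2 level and batch, where each point is a mouse, open points are the 4 mice not in the corrected table and lines are medians of the filled points. Endothelial sums separate by O2 within batch 1 (1451 to 1613 against 1661 to 1931) and are highest in batch 3, and dopaminergic sums spread widely in each group.

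Basement membrane and collagen genes were mixed, with 5 called higher and 2 lower of 29 and a median of 0.18. Nid2, a nidogen that links laminin to collagen IV, rose 1.91-fold (0.93 ± 0.15), and the heparan sulphate proteoglycan Hspg2 rose by 0.59 ± 0.18, a call that was lost without hypoxia replicate 10 (0.51) or 11 (0.43). Col4a1, the main collagen of vessel basement membrane, had a log2 fold change of 0.23 ± 0.06 and was not called. The members called lower were both collagen prolyl hydroxylases, P4ha2 (-0.52 ± 0.08) and P4ha1 (-0.44 ± 0.09), which act in the ER.

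Among the 10 higher genes with the smallest p whose sign was the same in batch 1 and in batches 2 and 3, several belong to vessels or transport. Slc6a6, the taurine transporter, had corrected TPM of 46.1 to 59.6 at 21% O2 and 61.5 to 80.1 at 11% O2, without overlap. Its log2 fold change was 0.41 ± 0.05 (edgeR adjusted p = 2.38e-08). Prss35, a serine protease-like protein, rose from a median of 9.15 to 16.6 corrected TPM, again without overlap (0.82 ± 0.09). Slc22a8, the organic anion transporter OAT3 of brain capillaries and choroid plexus, rose by 0.84 ± 0.10. Mcam, the adhesion molecule CD146 of endothelium and pericytes, had 54.4, 52.8, 62.4 and 41.6 TPM at 21% O2 and 86, 87.1, 88.5 and 88.9 at 11% O2 in batch 1. The 4 hypoxia mice lay close together and above all 4 normoxia mice, while the corrected TPM of the 20 mice just overlapped (48.3 to 76.4 against 74.7 to 108), and the log2 fold change was 0.69 ± 0.08. Casq2, a calcium-binding protein of muscle reticulum (0.89 ± 0.11), and Reck, a membrane regulator of metalloproteinases and of WNT7 signalling at the barrier (0.64 ± 0.08), completed the 10 beside Vegfa, Kdr, Cxcl12 and Abcc9.

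Red cell transcripts, which stand for blood left in vessels and for reticulocytes, were higher and uneven. Of 6 tested, 5 were called higher, with a median of 1.31 (0.66 in batch 1 and 1.64 in batches 2 and 3). Hba-a1, an α-globin whose reads can be shared with its near-identical copy Hba-a2, had 194.7, 263, 288 and 166.01 TPM at 21% O2 and 460, 411, 300 and 402 at 11% O2 in batch 1. All 4 hypoxia mice lay above all 4 normoxia mice, and over 20 mice the log2 fold change was 1.31 ± 0.28 (edgeR adjusted p = 0.00115). Alas2, the first enzyme of haem synthesis in erythroid cells, rose 3.2-fold (1.68 ± 0.38), with corrected TPM from 1.26 to 6.8 at 21% O2 and from 3.74 to 38.6 at 11% O2, so that the groups overlapped. The summed red cell level was 629 to 1195 TPM in the normoxia and 1045 to 1679 in the hypoxia mice of batch 1, and reached 5471 in batch 3. Its part in the higher endothelial levels was not tested.

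The HIF machinery itself held no called gene. Over all genes tested 7.23% were called, so a list as short as this can hold no call at that share. The same holds for the other short lists without a call described below. None of 11 HIF subunits and oxygen sensors was called by edgeR's quasi-likelihood test, DESeq2 or limma, 2 had an unadjusted p under 0.05, and the median was 0.00. These 2, chosen after their values were seen, also passed the adjusted p and missed only the fold change threshold: the oxygen sensor Egln1 was at 0.16 ± 0.05 (edgeR adjusted p = 0.0172) and Hif1an, which encodes the asparaginyl hydroxylase FIH, at -0.17 ± 0.05 (edgeR adjusted p = 0.00899). Hif1a had 60.5 to 83.9 corrected TPM at 21% O2 and 59 to 75.8 at 11% O2, and Epas1, which encodes the HIF-2 subunit, 109 to 132 and 106 to 147, so both pairs of groups overlapped throughout. Egln3, a prolyl hydroxylase and known HIF target, was at 0.13 ± 0.12.

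Of 20 other HIF targets tested, 4 were called higher and 1 lower, with a median of 0.05. Ankrd37 rose by 0.66 ± 0.13, Nt5e, the ectonucleotidase that makes adenosine, by 0.41 ± 0.09, and Bhlhe40, a transcriptional repressor, by 0.28 ± 0.06. Bnip3, a mitophagy receptor (0.06 ± 0.06), and Slc2a3, the neuronal glucose transporter (-0.04 ± 0.05), were not called. Among 28 genes of glycolysis and lactate, 4 were called, all higher, and the median was 0.08. These were Pfkl, the liver-type phosphofructokinase (0.38 ± 0.06), Ldha, the lactate dehydrogenase subunit (0.48 ± 0.06), Pdk1, which restrains pyruvate entry into mitochondria (0.33 ± 0.05), and Slc16a3, the lactate exporter MCT4 (0.74 ± 0.17). Pgk1, of the same pathway, was at 0.10 ± 0.04. Ldha had 153, 140, 135 and 187.7 TPM at 21% O2 and 187.5, 198.4, 243 and 182.8 at 11% O2 in batch 1. There the groups overlapped by 1 normoxia mouse, while corrected TPM went from a median of 154 to 222.

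The promoters of these genes were searched in RefSeq sequence of GRCm38.p6 for the core of the hypoxia response element, ACGTG or GCGTG, on both strands over 250 bases upstream of each start. Of the 8 HIF targets and glycolysis genes called higher, 7 had a promoter in the table, and 8 of their 9 promoters (88.9%) held the core, against 38.6% of all 32851 promoters. The same core stood before genes that fell, also above the share over all promoters. It was in 8 of 12 promoters (66.7%) of the 10 lower genes of smallest p. Of the called heat shock genes, all lower, 12 of 19 promoters (63.2%) held it, and of the called ER chaperone genes, all lower, 4 of 7 (57.1%). Ldha and Slc16a3, which rose, are shown beside P4ha2 and Ddit4, which fell, as the 150 bases before a start, 5′ to 3′ on the gene's strand, with the core on either strand in capitals. CACGTG holds the core on both strands.
Ldha, chr7:46845654-46845803, plus strand: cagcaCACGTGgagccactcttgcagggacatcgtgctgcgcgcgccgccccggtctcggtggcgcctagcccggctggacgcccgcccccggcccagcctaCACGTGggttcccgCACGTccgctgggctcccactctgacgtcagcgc
Slc16a3, chr11:120948917-120949066, plus strand: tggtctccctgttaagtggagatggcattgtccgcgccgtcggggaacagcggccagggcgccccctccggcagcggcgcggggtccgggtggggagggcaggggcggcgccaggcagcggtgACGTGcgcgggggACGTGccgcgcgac
P4ha2, chr11:54100774-54100923, plus strand: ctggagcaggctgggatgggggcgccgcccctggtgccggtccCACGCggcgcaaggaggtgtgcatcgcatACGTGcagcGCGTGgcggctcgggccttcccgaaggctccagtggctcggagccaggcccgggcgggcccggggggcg
Ddit4, chr10:59951771-59951920, minus strand: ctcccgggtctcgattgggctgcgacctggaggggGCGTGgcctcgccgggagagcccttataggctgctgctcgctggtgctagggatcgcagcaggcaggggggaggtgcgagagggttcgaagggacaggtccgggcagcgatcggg
Ldha held 5 matches in these 150 bases, P4ha2 3, Slc16a3 2 and Ddit4 1. These 4 genes were picked for display, so no relation of the count of matches to direction can be read from them. Ddit4 fell over the 20 mice (-0.44) but was at 0.09 in batches 2 and 3, and was not called with batch as a covariate (-0.30). Of the 10 higher genes of smallest p, 4 of 10 promoters (40.0%) held the core, close to the share over all promoters, and of the called endothelial genes, 3 of 15 promoters did. A match is a description of letters and not a bound site.

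**Figure D4:**
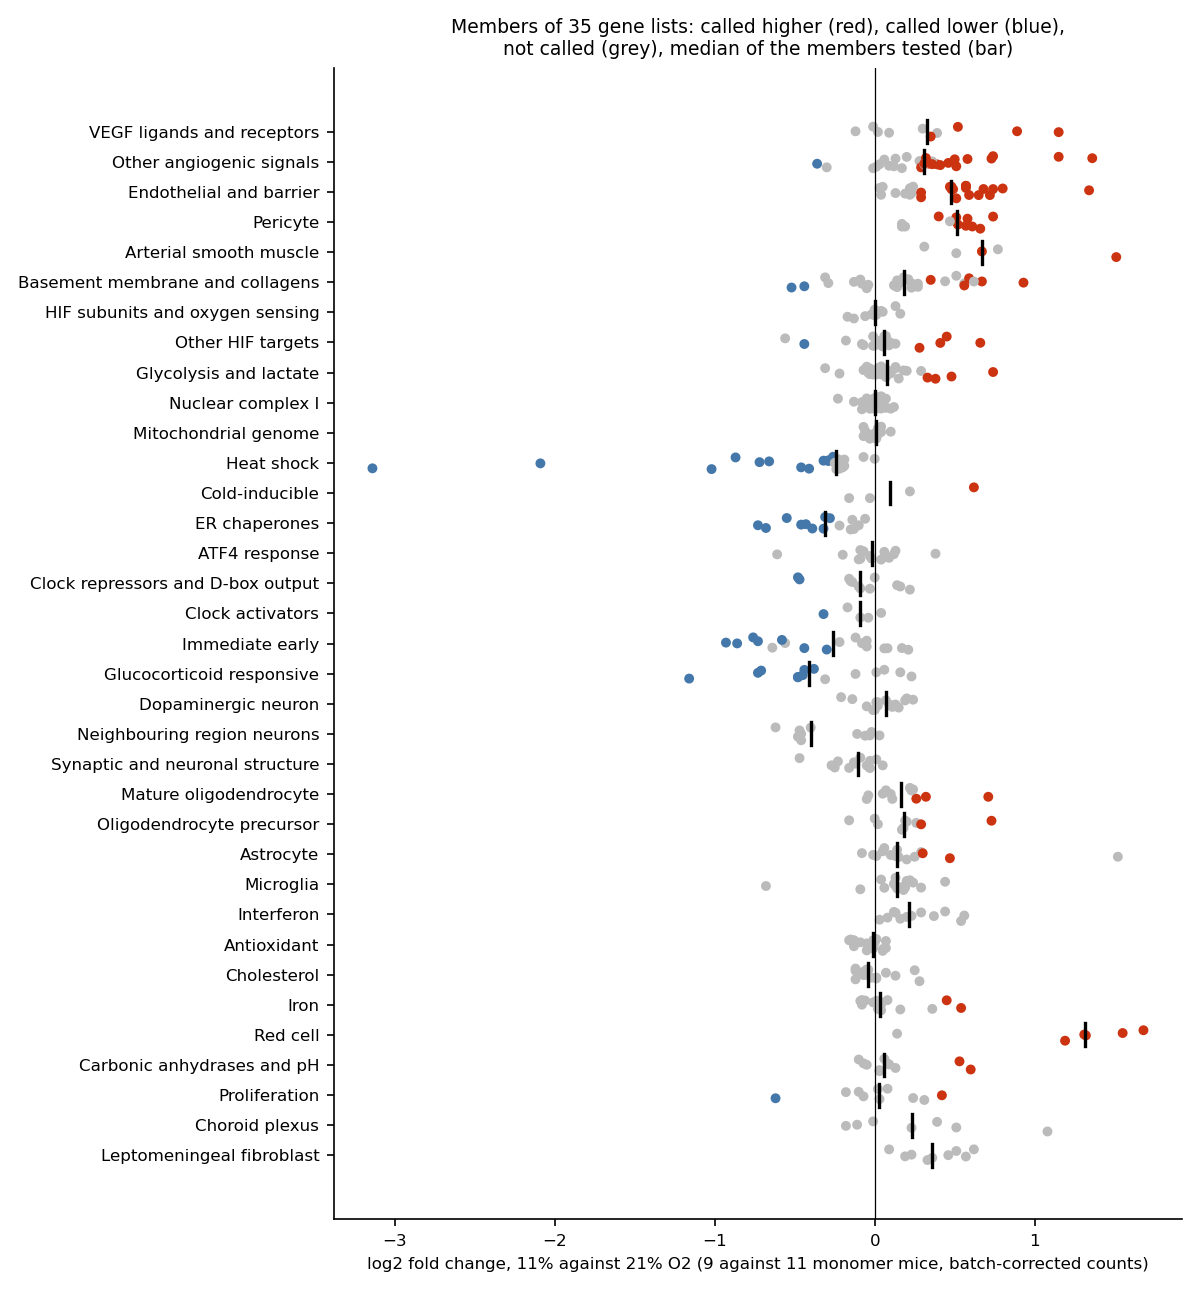
Each point is a gene of 1 of 35 lists, placed by its log2 fold change at 11% against 21% O2 in 9 against 11 monomer mice, with called genes in red (higher) or blue (lower), others in grey and a bar at the median of the list. Vascular and red cell lists lie to the right, heat shock, ER chaperone, immediate early and glucocorticoid lists to the left, and HIF subunits, complex I and mitochondrial genes stay around 0.

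Cytosolic chaperones were lower at 11% O2. Of 26 heat shock genes, 12 were called lower and none higher, 25 were negative, and the median was -0.25 (-0.28 in batch 1 and -0.29 in batches 2 and 3). Dnajb1 (chr8:83608193-83612653 of GRCm38, plus strand), the HSP40 co-chaperone that hands clients to HSP70, had 110, 141, 117 and 187.8 TPM at 21% O2 and 67.8, 65.3, 89.5 and 78.4 at 11% O2 in batch 1. Corrected TPM was 118 to 190.5 and 70.5 to 92.3, so every hypoxia mouse was below every normoxia mouse. The log2 fold change was -0.87 ± 0.08 (edgeR adjusted p = 4.6e-11).

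The inducible HSP70 genes Hspa1a and Hspa1b fell furthest. They lie side by side on chromosome 17 (34969190 to 34972156 and 34956436 to 34959238 of GRCm38, minus strand) and are near-identical copies, so reads could be split between them and their separate values are uncertain. Hspa1b had 54.7, 163.99, 85.7 and 256 TPM in the normoxia and 8.38, 7.41, 12.2 and 8.61 in the hypoxia mice of batch 1. It had 50.9 to 139 TPM in the 7 normoxia mice of batch 2 and 9.19 to 11.3 in the 5 hypoxia mice of batch 3. No hypoxia mouse reached the lowest normoxia mouse before correction, whereas after ComBat-seq the ranges met, at 16.4 to 266 against 8.55 to 18.4. The fitted log2 fold change was -3.14 ± 0.41 for Hspa1b and -2.09 ± 0.25 for Hspa1a, with -3.94 and -2.99 in batch 1. Also lower were Hsph1, an HSP110 exchange factor (-0.66 ± 0.07), Ahsa2, a relative of the HSP90 activator AHA1 (-0.72 ± 0.08), and Dnaja4, another HSP40 (-0.46 ± 0.06). Hsf1 itself had a log2 fold change of -0.20 ± 0.05, under the threshold for a call.

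Promoters of these genes were searched for the heat shock element as GAANNTTC or TTCNNGAA, where N is any base. All 12 called heat shock genes had promoters in the table, and 10 of their 19 promoters (52.6%), of 9 genes, held it, against 12.8% of all promoters. Hspa1a, Hspa1b and Dnajb1 are shown because they fell most clearly, as the 150 bases before a start, 5′ to 3′ on the gene's strand, with the element in capitals.
Hspa1a, chr17:34972157-34972306, minus strand: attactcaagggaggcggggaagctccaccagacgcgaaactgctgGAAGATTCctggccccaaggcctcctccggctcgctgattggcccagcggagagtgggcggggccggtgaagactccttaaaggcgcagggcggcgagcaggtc
Hspa1b, chr17:34959239-34959388, minus strand: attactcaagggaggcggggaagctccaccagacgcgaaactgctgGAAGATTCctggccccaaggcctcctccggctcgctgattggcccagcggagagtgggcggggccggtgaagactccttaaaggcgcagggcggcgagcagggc
Dnajb1, chr8:83608025-83608174, plus strand: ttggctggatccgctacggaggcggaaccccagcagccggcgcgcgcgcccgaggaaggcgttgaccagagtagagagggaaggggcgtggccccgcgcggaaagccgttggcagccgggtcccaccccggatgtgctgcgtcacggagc
Hspa1a and Hspa1b share 149 of these 150 bases and the element within them. Dnajb1 has 2 annotated starts, and the letters searched do not occur in the window shown, which lies before the start listed first along the chromosome. Of the 9 called ER chaperone genes, 7 had a promoter in the table and none of the 7 held the element.

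Further genes were lower at 11% O2. Ccdc117 (chr11:5528887-5542187 of GRCm38, minus strand) had 41.1, 49.1, 44.9 and 52.2 TPM at 21% O2 and 25.5, 23, 21.5 and 28.7 at 11% O2 in batch 1, with no overlap there or in the corrected TPM of all 20 mice. It fell by 0.81 on the log2 scale (SE 0.07, edgeR adjusted p = 6.55e-11). Dedd2, a death effector domain protein (-0.50 ± 0.06), Slc5a3, the myo-inositol transporter that responds to osmotic stress (-0.67 ± 0.08), and Josd1, a deubiquitinase (-0.41 ± 0.05), made up the 10 lower genes of smallest p with the chaperones. Among these 10, the corrected TPM of the groups overlapped only in Hspa1a and Hspa1b. They were chosen by their p in the same corrected counts, which favours separation. Over all genes tested, 0.391% were without overlap. Cirbp, a cold-inducible RNA-binding protein, went the other way. It had 136, 111, 118 and 108 TPM at 21% O2 and 189.5, 186.4, 170.8 and 161.7 at 11% O2 in batch 1, and rose by 0.62 ± 0.08 without overlap of the corrected TPM. It was the 1 called member of 4 cold-inducible genes, and Rbm3, its relative, was at 0.22 ± 0.06.

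ER chaperones and their regulators were lower as a group, with 9 of 15 called lower, none higher and a median of -0.31. All 15 were negative over the 20 mice, in batch 1 and in batches 2 and 3. The median was -0.16 in batch 1, where no member was called, and -0.46 in batches 2 and 3, where 10 were. Hspa5, the ER chaperone BiP, had 263, 258, 281 and 330 TPM at 21% O2 and 200.3, 222, 266 and 203.3 at 11% O2 in batch 1. A hypoxia mouse at 266 reached into the normoxia range, and the log2 fold change was -0.55 ± 0.09 over 20 mice and -0.35 in batch 1. Creld2, a secreted ER stress protein, fell by 0.73 (SE 0.12), Herpud1, of ER-associated degradation, by 0.32 (SE 0.05), and Xbp1, the transcription factor of the unfolded protein response, by 0.43 (SE 0.07), each on the log2 scale. The ATF4 response, another arm of ER stress, had 0 of 15 genes called by edgeR's quasi-likelihood test, DESeq2 or limma, with 5 at an unadjusted p under 0.05, of which Mthfd2 (-0.20 ± 0.06, chosen after its values were seen) also passed the adjusted p.

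Immediate early and glucocorticoid-responsive genes were lower, with unequal values in the batches. Of 18 immediate early genes, 7 were called lower and none higher (median -0.26, with -0.30 in batch 1 and -0.19 in batches 2 and 3). No member was called in batch 1, where 15 of 18 were negative, and in batches 2 and 3 none was called lower and 1 was called higher, the AP-1 subunit Jund (0.49, chosen after its values were seen). Fos, an activity-induced transcription factor, had 37.1, 20.9, 24 and 45.1 TPM at 21% O2 and 6.73, 8.52, 22.7 and 14.7 at 11% O2 in batch 1. The ranges overlapped by 1 hypoxia mouse, and the log2 fold change was -0.76 ± 0.25 over 20 mice, called but not when any 1 of 7 mice was left out. Nr4a3, an orphan nuclear receptor, was at -0.86 ± 0.15, Egr4 at -0.93 ± 0.21, Fosl2, an AP-1 subunit, at -0.58 ± 0.12 and Homer1, a postsynaptic scaffold, at -0.30 ± 0.06. Of 14 glucocorticoid-responsive genes, 8 were called lower and none higher, with a median of -0.41, -0.51 in batch 1 and -0.11 in batches 2 and 3. Tsc22d3, the glucocorticoid-induced leucine zipper, had 118 to 171.3 corrected TPM at 21% O2 and 77.4 to 112 at 11% O2, without overlap. Fkbp5, a classical target of the glucocorticoid receptor, had a log2 fold change of -0.12 ± 0.06 and was not called.

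The genes lower in batch 1 with the smallest p were Sgk1, Arl4d, Ddit4, Per1 and Ccdc117, and the first 4 had smaller or opposite values in batches 2 and 3. Sgk1, a kinase induced by glucocorticoids, had 141, 178.01, 233 and 195.8 TPM at 21% O2 and 35.6, 30.1, 30.1 and 41.5 at 11% O2 in batch 1. That is a log2 fold change of -2.45 ± 0.16 (edgeR adjusted p = 0.000745), with the groups far apart. In batches 2 and 3 it was -0.50 ± 0.38 (edgeR adjusted p = 0.57), with 63.4 to 178.5 TPM in the normoxia and 32.4 to 78.1 in the hypoxia mice. Arl4d, a small GTPase-like protein, was at -1.53 in batch 1 and -0.14 in batches 2 and 3, and the clock repressor Per1 at -0.65 and -0.15. Ddit4, an mTORC1 inhibitor induced by both hypoxia and glucocorticoids, was at -0.61 in batch 1 and 0.09 in batches 2 and 3, so the direction was not the same. Whether these values differed between the batches was not tested. The batch 1 normoxia mice had Sgk1 levels of 141 to 233 TPM, and the normoxia mice of batch 2 had 63.4 to 178.5, with a median of 89.0. Of 12 clock repressors and output genes, Per1 and Per2 (-0.47 ± 0.08) were called, and of 5 clock activators, Nfil3 was (-0.32 ± 0.09), all lower. The hour of harvest is not given in the sources used here.

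Dopaminergic neurons, the cells lost in Parkinson's disease, define the tissue. Their markers were present in every mouse, with Th, the rate-limiting enzyme of dopamine synthesis, at 131 to 991 corrected TPM at 21% O2 and 109 to 1079 at 11% O2. The spread within each group was wide, and Slc6a3, the dopamine transporter, spread with it, from 335 to 1647 and from 263 to 1879. None of 17 dopaminergic genes was called by edgeR's quasi-likelihood test, DESeq2 or limma, 1 had an unadjusted p under 0.05, and the median was 0.07 (-0.20 in batch 1 and 0.13 in batches 2 and 3). The standard error on the log2 scale was 0.34 for Th and 0.29 for Slc6a3, against 0.05 for Vegfa, so a change in these genes could be detected only if it was much larger. Markers of neighbouring nuclei had a median of -0.40 over 11 genes in the corrected counts, but of -0.03 in batch 1, -0.21 in batches 2 and 3 and -0.23 in uncorrected counts with batch as a covariate. They and 14 general synaptic genes had 0 called genes by edgeR, DESeq2 and limma, with 1 and 3 at an unadjusted p under 0.05. The summed level of the neighbouring neuron genes was 1196 to 2130 TPM at 21% O2 and 1297 to 2106 at 11% O2, nearly the same range.

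Among glial genes, calls fell on oligodendrocyte and astrocyte lists, all of them higher, and on no microglial gene. Over all genes tested, 4.68% were called higher. Of 12 genes of mature oligodendrocytes, 3 were called higher, and the median was 0.16. Opalin, a membrane protein of myelinating cells, had 95.1, 85.7, 91.7 and 63.5 TPM at 21% O2 and 122, 150, 124 and 114 at 11% O2 in batch 1. Its corrected TPM was 48 to 95.8 and 98.8 to 153, so no values overlapped, and the log2 fold change was 0.71 ± 0.11. Mog (0.32 ± 0.06) and Cnp (0.26 ± 0.06), myelin components, were called beside it. Of 10 precursor genes, Olig1 (0.29 ± 0.08) and Bmp4 (0.73 ± 0.24) were called. Of 15 astrocyte genes, Agt, angiotensinogen (0.30 ± 0.08), and Vim, an intermediate filament also present in vessels (0.47 ± 0.16), were called, while Gfap was at 0.29 ± 0.21. None of 17 microglial genes and none of 12 interferon-induced genes was called by edgeR, DESeq2 or limma, with 4 and 2 at an unadjusted p under 0.05. Aif1, which marks microglia, was at 0.18 ± 0.14. All 12 interferon genes had a positive log2 fold change.

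Iron and pH genes included a few clear changes. Tfrc, the transferrin receptor, had 43.9 to 60.2 corrected TPM at 21% O2 and 69.8 to 93.2 at 11% O2, with no overlap in these or in the uncorrected values (0.54 ± 0.07, edgeR adjusted p = 1.19e-06). Slc40a1, the iron exporter ferroportin, was the other called gene of 15 (0.45 ± 0.10). Of 11 carbonic anhydrases and pH regulators, Car14 (0.53 ± 0.08) and Car4, an enzyme on the surface of capillary endothelium (0.60 ± 0.10), were called. Of 10 proliferation genes, Mcm3, of the replicative helicase, was called higher and the cyclin Ccnb2 lower, and Mki67 was at 0.31 ± 0.27.

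Energy and redox genes showed no calls. Among 36 nuclear complex I genes, 13 genes of the mitochondrial genome, 15 antioxidant genes and 16 cholesterol synthesis genes, 0 were called by edgeR's quasi-likelihood test, DESeq2 or limma, with 3, 0, 2 and 1 at an unadjusted p under 0.05. Of these, 3 chosen after their values were seen also passed the adjusted p and missed only the fold change threshold, the complex I subunit Ndufb2 (-0.23 ± 0.07) and the reductases Txnrd1 (-0.16 ± 0.05) and Gsr (-0.15 ± 0.05). Hmox1, the haem oxygenase, was at -0.07 ± 0.08. The share of counts on the mitochondrial genome was 12 to 14.7% at 21% O2 and 11.7 to 14.2% at 11% O2. Cholesterol genes had a median of -0.37 in batch 1, with 0 of 16 positive, and of 0.18 in batches 2 and 3, with 15 of 16 positive. None of 7 choroid plexus genes was called by edgeR, DESeq2 or limma, 1 had an unadjusted p under 0.05, and Ttr, the most abundant of them in that tissue, ranged from 5.39 to 62.1 uncorrected TPM at 21% O2 and from 11.7 to 41.6 at 11% O2.

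Genes outside the corrected table, most of them noncoding, were tested in uncorrected counts with batch as a covariate. Of 3499 tested, 196 were called (5.60%), 131 higher and 65 lower, among them 48 lincRNAs and 37 antisense transcripts. Of 13 long noncoding RNAs listed, Mir9-3hg, a host transcript of miR-9, was called at 0.50 ± 0.09, Neat1, the scaffold of paraspeckles, at 0.34 ± 0.09 and Mirg, of the imprinted Dlk1-Dio3 region, at -0.37 ± 0.12. Mir9-3hg had 11.4, 12, 12.1 and 8.43 TPM at 21% O2 and 17.5, 15.4, 14.2 and 15.7 at 11% O2 in batch 1, with no overlap there.

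The response was set against that of the PFF mice, 10 at 11% and 12 at 21% O2, which shared no mouse with it. In the PFF mice 86 of the 14839 genes were called (0.580%). The interaction, a test of the difference between the 2 responses, called 318 genes (2.14%), 155 of them (1.04%) more positive in the monomer mice and the others (1.10%) more negative. Of these, 219 were also called in the monomer mice, and 17 were called in the PFF mice. For several vascular and HIF genes the values were close. Vegfa was at 0.89 in the monomer and 0.94 in the PFF mice (interaction -0.05 ± 0.07), Kdr at 1.15 and 0.97 (0.18 ± 0.13), Prss35 at 0.82 and 0.83 (-0.01 ± 0.13) and Ldha at 0.48 and 0.54 (-0.06 ± 0.09), and none of these interactions was called. The endothelial genes as a list had a median of 0.48 in the monomer and 0.22 in the PFF mice, where 1 of 26 was called. The interaction was called in 0 of these 26 genes by edgeR and 1 by DESeq2, with 5 at an unadjusted p under 0.05 in edgeR. Mcam, Reck and Slc6a6 responded more in the monomer mice (interactions of 0.51, 0.53 and 0.26, all called).

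All 10 of the lower genes of smallest p had a called interaction, against 219 of the 1073 genes called in the monomer mice and 2.14% of all genes tested. These 10 were chosen by their response in the monomer mice. That response is also a part of the interaction, so the choice favours such calls. The interaction was -0.77 ± 0.10 for Dnajb1 (edgeR adjusted p = 2.3e-05), -0.83 ± 0.10 for Ccdc117 and -2.32 ± 0.56 for Hspa1b. The levels are given as medians of uncorrected TPM pooled over batches, and the groups do not hold the same batches. In the monomer mice at 21% O2, batches 1 and 2 had medians of 129 and 131 for Dnajb1. These were 47 and 40.2 for Ccdc117, and 114 and 93.4 for Cirbp. The part of batch in the levels below was not tested. Dnajb1 had a pooled median of 131 in the monomer mice at 21% O2, 74.9 in the monomer mice at 11% O2, 77.4 in the PFF mice at 21% O2 and 74.7 in the PFF mice at 11% O2. Ccdc117 had medians of 41.5, 25.8, 24.8 and 27.5 in the same order. Hspa1b had 85.9, 9.24, 18.5 and 8.71, with PFF mice at 21% O2 ranging from 8.35 to 95.5. For Dnajb1 and Ccdc117 the median of the monomer mice at 21% O2 was high and the medians of the other 3 groups lay near each other, whereas for Hspa1b the PFF mice at 21% O2 lay between. Opalin had an interaction of 0.71 ± 0.15 and Cirbp of 0.69 ± 0.12, both called, and here the pooled median of the monomer mice at 21% O2 was the lowest. That of Cirbp was 107 TPM there, 170.8 in the monomer mice at 11% O2, and 172.5 and 155 in the PFF mice at 21% and 11% O2. Besides Dnajb1, Ccdc117 and Josd1, the smallest p for the interaction belonged to Vapa, an ER membrane contact protein (-0.30 in monomer and 0.21 in PFF mice, interaction -0.50 ± 0.07), and Lrrc29, an F-box gene (0.66 and -0.28, interaction 0.94 ± 0.15). Of the 26 heat shock genes, 7 had a called interaction, and of 18 immediate early genes 4 had one.

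**Figure D5:**
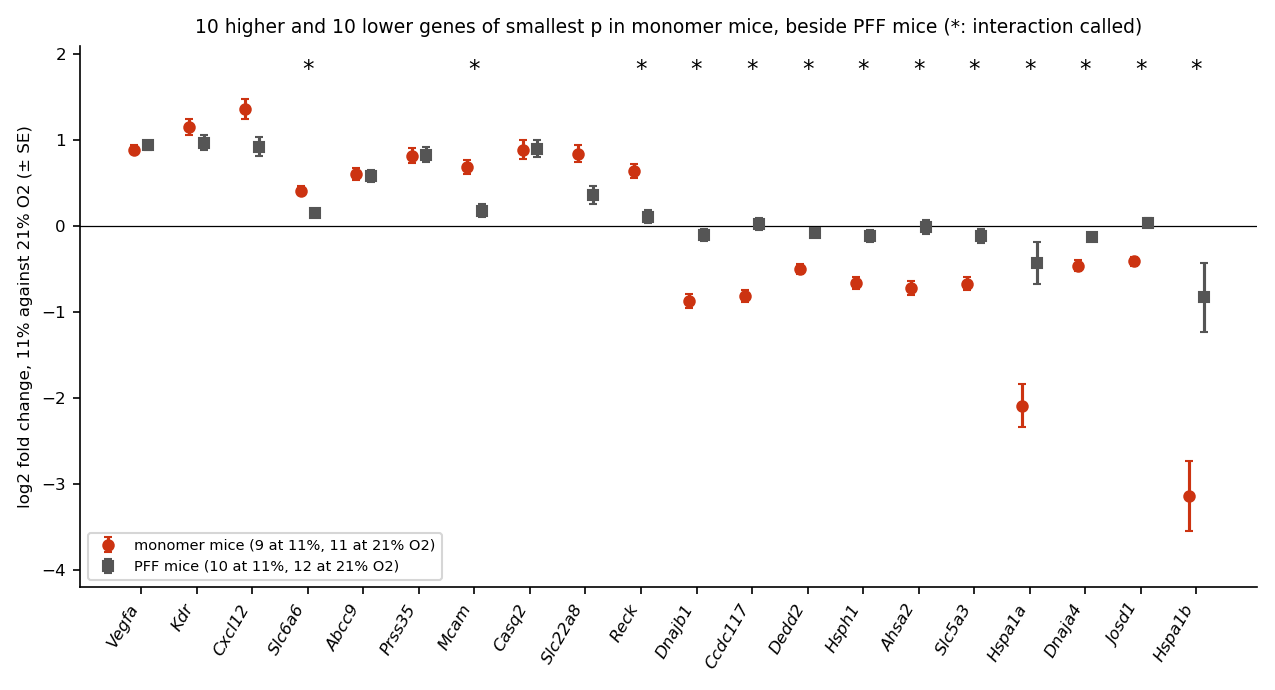
Log2 fold change at 11% against 21% O2, with its SE as error bars, of the 10 higher and 10 lower genes of smallest p in the monomer mice (circles, 9 against 11) beside the same genes in the PFF mice (squares, 10 against 12), with stars for genes whose interaction was called. Vegfa, Kdr, Abcc9, Prss35 and Casq2 have close values in both, and the 10 lower genes, all starred, lie near 0 in the PFF mice except Hspa1a and Hspa1b, whose error bars are wide.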

How the data were processed

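RNA was taken from the SN of 48 mice, which the labels give as separate animals. The authors removed ribosomal DNA reads, aligned with STAR and removed duplicates with Picard, then counted with featureCounts per gene of GENCODE vM24, using primary alignments of multimapping reads and no strand option. The submitters' processing notes name STAR 2.7.5a, Picard 2.21.9, GATK 4.1.5.0-9, featureCounts 2.0.1, Scanpy 1.8.1 and mm10. Because no strand was used, reads of overlapping genes on opposite strands cannot be told apart. The authors deposited raw counts and TPM of 55385 genes in 48 mice. From a principal components analysis they dropped 6 mice, then corrected batches by harvest date with ComBat-seq, with O2 and injection as covariates, and deposited corrected counts and corrected TPM of 19601 protein-coding genes in 42 mice. Correction that is told the groups can narrow their spread, which is why uncorrected values within batch 1 stand beside the corrected ones. No columns of other samples were present.

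The main test was run on corrected counts (42 mice, edgeR 4.0.16, R 4.3.3; TMM, filterByExpr by group, quasi-likelihood test, 4 groups in 1 fit, no batch term, Benjamini-Hochberg adjustment). Each standard error (SE) is |log2 fold change| over √F. Batch 1 was fitted on uncorrected counts of its 8 monomer mice. Batches 2 and 3 were fitted with group and batch on their monomer and PFF mice. The test was checked on simulated data. Members and gene lists were chosen with earlier results of these data known. Named are Vegfa and Kdr, the 10 higher and 10 lower genes of smallest p that were called and were of the same sign in batch 1 and in batches 2 and 3, up to 4 called members per list of smallest p and a few not called, the 5 of smallest p for the interaction, and the 5 in each direction in batch 1. Others are marked as chosen after their values were seen. Alternatives were DESeq2 1.42.0, its size factors, no filter, no fold change threshold, batch as a covariate, no batch term, the 20 mice alone, a replicate block, limma 3.58.1 on log2(TPM + 1) or log2(TPM + 0.1), and each mouse left out. Coordinates are those of the gene identifiers in GENCODE vM21 on GRCm38, and promoters come from RefSeq. Depth was 13596980 to 17120921 counts per mouse.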

Additional observations from a re-analysis of the deposited data

Results flagged for a closer look

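In the 9 monomer mice at 11% O2, the corrected TPM of 8 genes, of 107 checked, held a mouse far from the others by Dixon's criterion, by which chance flags about 1 in 20 groups. Replicate 7 was the highest for Ddit4 (194), Agt (1226), Arl4d (56.8) and Gfap (2475), and the lowest for Dnaja4 (25.5). Replicate 11, the mouse collected 98 days after injection, was the highest for Hspa1a (24.4) and Angpt2 (3.55), and replicate 6 was the highest for Rgs5 (215.4). No cause of these values was tested.

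The response to 11% O2 differed between monomer and PFF mice, by edgeR's test of the interaction, in 32 of 107 named genes. The interaction was called in 2.14% of all genes tested. Most named genes were chosen by their response in the monomer mice, which is a part of the interaction. Some were chosen by the interaction itself. The choice favours such calls, so the count of 32 cannot be compared with the share over all genes. The difference is given here as the monomer minus the PFF log2 fold change. It was negative for cytosolic chaperones and the genes that moved with them: Hspa1b (-2.32), Hspa1a (-1.66), Ccdc117 (-0.83), Dnajb1 (-0.77), Ahsa2 (-0.70), Slc5a3 (-0.55), Hsph1 (-0.54), Josd1 (-0.46), Dedd2 (-0.42) and Dnaja4 (-0.33). For ER proteins it was -0.70 in P4ha1, -0.64 in Creld2, -0.52 in P4ha2, -0.50 in Vapa, -0.48 in Hspa5 and -0.36 in Xbp1. For immediate early genes it was -1.30 in Egr4, -1.0 in Nr4a3, -0.79 in Fosl2 and -0.32 in Homer1, and for glucocorticoid-responsive genes -0.39 in Errfi1 and -0.34 in Tsc22d3. It was positive for the vascular genes Reck (0.53), Mcam (0.51) and Pdgfrb (0.39), for the transporter Slc6a6 (0.26), for the oligodendrocyte genes Opalin (0.71) and Mog (0.33), for the cold-inducible Cirbp (0.69) and Rbm3 (0.31), for Tfrc (0.37) and for Lrrc29 (0.94).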

How the results depend on the processing

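With 1073 genes called over the 20 mice, the adjusted p alone gave 1961, batch as a covariate on uncorrected counts of 42 mice 657, batch 1 alone 25 and batches 2 and 3 alone 229. Batch 1 has 8 mice, with uncorrected counts. DESeq2 gave 1059, its size factors in edgeR 1073, no filter 1073, no batch term 1167, the 20 mice alone 919, 48 mice with batch as a covariate 749, limma on log2(TPM + 1) 920 and on log2(TPM + 0.1) 1012. Leaving out 1 mouse gave 886 (without hypoxia replicate 1) to 1289 (without hypoxia replicate 5). For batch 1, with 25 genes called, DESeq2 gave 287 and a fit of all 4 groups of that batch 297. Leaving out 1 mouse gave 8 (without hypoxia replicate 1 or normoxia replicate 2) to 18 (without normoxia replicate 1), and the omission of any mouse but that last one moved the count by more than 1.5 times. For the interaction, with 2.14% of genes called, batch as a covariate gave 1.39%, batch 1 alone 0.0745% (11 genes) and DESeq2 2.54%. The 48 mice with batch as a covariate gave 1.03% and the replicate block 1.97%, both chosen after seeing the data. Replicate numbers did not pair the mice of batch 1: deviations from the group means correlated at -0.254, -0.145, -0.561 and -0.481 for numbers 1 to 4, and 0 mice correlated best with their own number. With the replicate block, 1124 genes were called over the 20 mice and 0 by edgeR in batch 1, where 1340 had an unadjusted p under 0.05, against 2364 without it.

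Ddit4 was the 1 named gene to turn its direction, with a log2 fold change of 0.09 in batches 2 and 3 alone, and the cause was not tested. Of 107 named genes tested, 83 were called. Batch 1 alone left 64 without their call, batches 2 and 3 alone 39, batch as a covariate 12 on 42 mice and 17 on 48. Leaving out some 1 mouse ended the call of 10. Besides Acta2 and Hspg2, given above, these were Bhlhe40 (0.24 without hypoxia replicate 1) and Agt (0.25 without hypoxia replicate 7), and Cnp, Ccnb2, Tek, Fos, Bmp4 and Vim, which lost it without any 1 of 5, 5, 6, 7, 9 and 13 mice. With 4 against 4 mice, and with the groups in different batches beyond those, a missing call in batch 1 says little about a gene's stability. Genes of about 1 TPM, such as Egr4 and Angpt2, rest on few counts.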

Other observations

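The 4 monomer mice that the authors left out of the corrected table have uncorrected values. Hypoxia replicates 8, 9 and 12 had 254, 230 and 211.6 TPM of Vegfa, and normoxia replicate 10 had 116. Hspa1b was 7.89, 8.7 and 13.3 TPM in these hypoxia mice and 109 in the normoxia mouse, and Cirbp was 183.7, 157 and 155 against 99.7. These values of Vegfa, Hspa1b and Cirbp lie within or near the ranges of the mice kept at the same oxygen level. Vessel and meningeal sums of normoxia replicate 10 did not. It had 2086 TPM over the endothelial, 525 over the pericyte and 426 over the leptomeningeal genes. The highest kept normoxia mouse had 1814, 348 and 122. Its sums for neighbouring neurons (1874) and choroid plexus (51.7) lay within the kept range. The cause was not tested. Kdr was 22.2, 15.3 and 22.7 TPM against 10.1, and Th was 81, 62.6 and 435 TPM against 191.1, so that 3 of the 4 had less Th than the lowest mouse kept.

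Among the genes outside the corrected table, the following were chosen after their values were seen. The noncoding gene with the smallest p was Gm46658 (chr19:5072229-5075257 of GRCm38, plus strand), which rose by 1.81 ± 0.19 on the log2 scale (edgeR adjusted p = 2.35e-08) and by 1.82 in batch 1. It lies antisense to Tmem151a and within 5 kb of Cd248, a gene of pericytes and fibroblasts, and reads of overlapping genes could not be separated by strand. 0610040B10Rik, antisense to Zdhhc4, rose by 1.05 ± 0.14, and Lncppara, at the let-7 microRNA genes Mirlet7c-2 and Mirlet7b, by 0.75 ± 0.13. Gm49759 (0.45 ± 0.07) lies within Pkm, and Gm15344 (-0.99 ± 0.19) overlaps the ER chaperone gene Hsp90b1 on the same strand. Hsp90b1 was also lower (-0.22, edgeR adjusted p = 0.00561) and missed only the fold change threshold.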
